A study of Mus musculus with 4 samples.

Results

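The expression of 4 genes of the interleukin-1 (IL-1) family, Il33, Il18, Il1f8 and Il1rn, was followed in primary keratinocytes, the epithelial cells of the epidermis. They were taken as the rows of the authors' deposited comparison tables whose gene symbol is exactly one of these names, and each matched 1 transcript cluster (the array's unit for a gene). They are 4 of the 3059 clusters that carry a single symbol in those tables, and 4 of the 22206 clusters on the array. RNA came from cultures of male mice, wild type (WT) or labelled as an HMGB1 knockout (KO), kept for 12 h either without addition or with 100 ng/ml of recombinant interleukin-4 (IL-4). The design text calls the mutant mice K5-HMGB1. The sources used here do not say how the allele was made or how many animals gave each culture. There were 4 Affymetrix Clariom S Mouse arrays, 1 for each combination of genotype and treatment. No value below therefore has a replicate error, no p-value was computed, and precision is limited by having 1 array per group.

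IL-1 family cytokines are alarm signals of barrier tissues. Epidermal cells hold several of them ready, in the nucleus or as inactive precursors, and release them on damage. They bind receptors that share a signalling domain with the Toll-like receptors and act through MYD88, IRAK kinases and NF-kB. Il33 encodes a nuclear alarmin that acts on type 2 immune cells, and Il18 encodes a cytokine that caspase-1 cleaves into its active form. Il1f8 (also named Il36b) encodes IL-36 beta, an agonist of the IL-36 receptor. Il1rn encodes the IL-1 receptor antagonist, which occupies the IL-1 receptor without signalling. IL-4, the cytokine added here, signals through STAT6.

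The promoter windows of the 4 genes are shown because the genes moved together after a cytokine that acts through a STAT factor. Each runs from 250 bases before to 50 bases after a transcription start of the RefSeq annotation of GRCm38.p6, 5′ to 3′. Capitals mark matches, on either strand, to STAT motifs, in which TTC and GAA stand 4 bases (the wide form) or 3 bases (the narrow form) apart, or to the AP-1 motif TGANTCA.
Il33 (chr19:29924863-29925162, plus strand): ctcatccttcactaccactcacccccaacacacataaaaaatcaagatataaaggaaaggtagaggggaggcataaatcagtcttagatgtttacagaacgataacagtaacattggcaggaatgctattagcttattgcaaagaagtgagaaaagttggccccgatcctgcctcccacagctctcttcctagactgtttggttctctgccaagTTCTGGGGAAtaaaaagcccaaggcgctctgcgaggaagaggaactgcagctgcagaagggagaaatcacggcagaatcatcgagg
Il18 (chr9:50554450-50554749, plus strand): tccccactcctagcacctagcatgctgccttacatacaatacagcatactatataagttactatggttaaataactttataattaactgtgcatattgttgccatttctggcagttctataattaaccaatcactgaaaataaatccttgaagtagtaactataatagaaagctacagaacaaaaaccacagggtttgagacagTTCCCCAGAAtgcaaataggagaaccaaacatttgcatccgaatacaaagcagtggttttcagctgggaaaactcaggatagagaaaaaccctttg
Il1f8 (chr2:24152922-24153221, plus strand): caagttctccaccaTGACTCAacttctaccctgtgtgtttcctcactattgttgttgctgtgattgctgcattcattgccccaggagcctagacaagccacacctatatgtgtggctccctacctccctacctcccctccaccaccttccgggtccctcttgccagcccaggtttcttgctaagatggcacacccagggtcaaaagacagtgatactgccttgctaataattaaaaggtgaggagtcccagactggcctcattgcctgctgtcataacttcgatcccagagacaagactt
Il1rn (chr2:24336610-24336909, plus strand): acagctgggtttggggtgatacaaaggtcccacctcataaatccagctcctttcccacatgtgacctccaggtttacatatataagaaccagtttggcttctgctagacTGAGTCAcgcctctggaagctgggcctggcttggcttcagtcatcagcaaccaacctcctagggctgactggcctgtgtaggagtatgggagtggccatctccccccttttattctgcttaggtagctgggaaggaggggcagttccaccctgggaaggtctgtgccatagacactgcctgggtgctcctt
The wide STAT motif was in the Il33 window, as TTCTGGGGAA, and in the Il18 window, as TTCCCCAGAA, starting 36 and 46 bases before the start site. It was also in both windows, which overlap, of the downstream starts that RefSeq lists for Il1rn, as TTCCCAGGAA, while the first Il1rn window and the Il1f8 window held an AP-1 match instead. The window of the downstream Il33 start held neither STAT form nor the AP-1 motif. Of all 32851 promoter windows of the table, 6.95% held the wide STAT motif, 8.3% the narrow one and 7.81% TGANTCA. The narrow STAT motif was in no window of the 4 genes. Both NF-kB motifs searched, GGGA and TTCC 2 bases apart (1.47% of windows) and its special case with TTTCC 1 base after GGGA (0.411%), were in none of the 7 windows of the 4 genes. Motifs that most or many promoters hold were found as well: the E-box CANNTG (72.3% of all windows) was in 6 of the 7 windows, and the C/EBP motif TTNNGNAA (40.7%) was in 4. These matches are descriptions of the letters and not of binding, and the array gives 1 value per gene, so it does not tell apart the starts of Il33 or of Il1rn.

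The targeted gene and the background level were examined first. Hmgb1 had a deposited log2 value of 14.71 untreated and 14.17 with IL-4 in WT, against 7.97 and 7.60 in KO. The background level used here is a log2 value of 9.21, which 95% of the values of the 5222 negative control rows do not exceed. Below it, a value is given as measured and the fold is stated as a bound against 9.21. The values of all clusters reach 19.85, above the 16 of a 16-bit scanner count. The log2 scale may therefore have been altered in processing, at a step that is not known here. Folds are taken at face value, and their sizes may be affected. Gene names exist only for clusters that differed by 2-fold or more in a deposited table, and 19028 clusters are unnamed here. Of 56 marker genes of 7 cell types, 16 could be named. Of the keratinocyte markers, Epcam was at 12.55 to 15.14 and Itgb4 at 14.96 to 16.59 over the 4 arrays, while Krt5, Krt14 and Trp63 have no named cluster.

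In WT cultures all 4 genes were lower with IL-4. Il33 had a log2 value of 13.05 untreated and 5.09 with IL-4, a difference of -7.96. Il18 went from 12.87 to 6.61 (-6.26), and Il1f8 from 12.97 to 9.01 (-3.97). With IL-4 these 3 genes lay under the background level, so the bounds are at least 14.3-fold lower for Il33, at least 12.6-fold for Il18 and at least 13.6-fold for Il1f8. Il1rn went from 13.46 to 10.09 (-3.37), which is 10.4-fold lower, with both values above background. The bounds of Il33, Il18 and Il1f8 lie close together, so the order of the 3 measured differences is uncertain. A call means a difference of at least 2-fold in a cluster whose highest value reached 5.13, the median of all cluster values. All 4 were called lower, as were 9.26% of the 11854 clusters tested. This count follows from the naming, since all 4 genes were named through the table of this comparison, and nothing is read from it.

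The KO cultures repeat the comparison on arrays that share none with the WT pair. Il33 had 12.72 untreated and 5.45 with IL-4 (-7.27), and Il18 had 12.53 and 7.13 (-5.40). Il1f8 went from 12.43 to 9.34 (-3.08), and Il1rn from 12.61 to 8.64 (-3.97). In each gene the IL-4 value lay below both untreated values. Il1f8 fell 8.48-fold with both KO values above background, while the bounds for the others are at least 11.4-fold for Il33, at least 9.96-fold for Il18 and at least 10.5-fold for Il1rn. All 4 were called lower, against 9.33% of the 11854 clusters, and against 65.9% of the 1098 clusters that were called lower in WT. By values as measured, only 4 clusters of the 11854, Il33 included, fell as far as Il33 in KO. As far as Il18 fell 20 clusters, as far as Il1rn 70 and as far as Il1f8 148. Among the 5222 negative control rows, 1 fell as far as Il33 in KO, 8 as far as Il18, 22 as far as Il1rn and 39 as far as Il1f8. These counts rest on IL-4 values under background for Il33, Il18 and Il1rn. With values under background raised to it, the differences in KO were -3.51 for Il33, -3.32 for Il18, -3.40 for Il1rn and -3.08 for Il1f8. The order of the 4 genes in KO, and the counts for Il33, Il18 and Il1rn, are therefore uncertain.

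**Figure D1:**
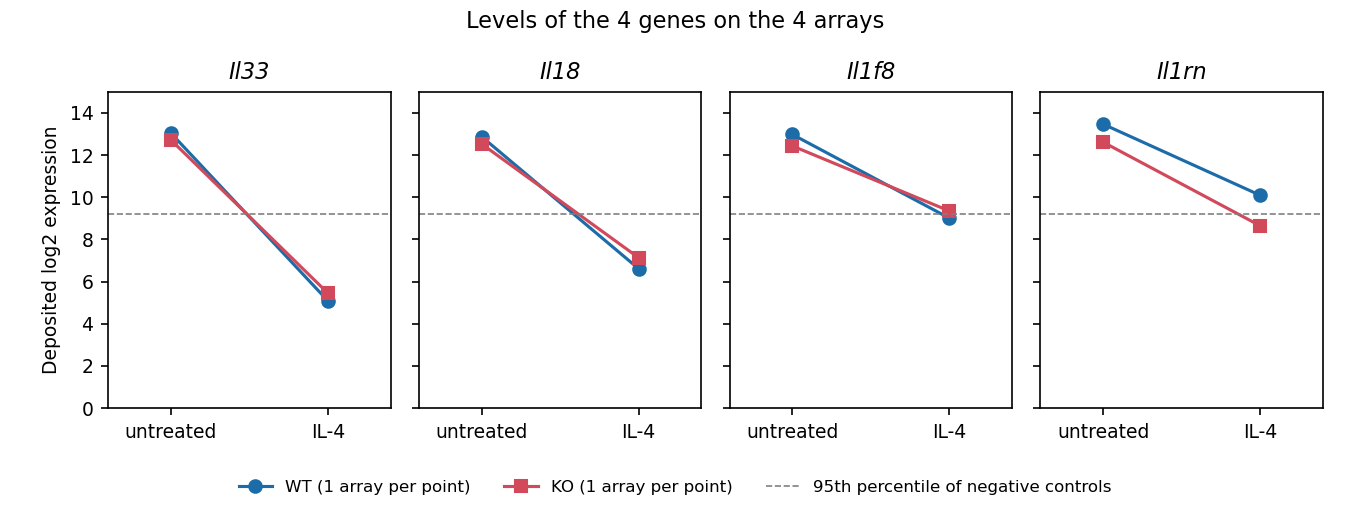
Deposited log2 expression (y axis) of Il33, Il18, Il1f8 and Il1rn in untreated and IL-4 cultures (x axis) of WT (circles) and KO (squares), 1 array per point, with the dashed line at the background level of 9.21. All 4 genes are above 12 untreated, Il33 and Il18 are under the line with IL-4 in both genotypes, and Il1rn is lower in KO than in WT under both treatments.

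Markers of differentiation and of other cells moved in the same arrays. Krt1, a keratin of the suprabasal layers, went from 16.62 to 7.49 in WT and from 17.35 to 7.99 in KO, and its partner Krt10 from 11.98 to 6.80 and from 13.94 to 8.70. All 4 IL-4 values are under background, so Krt1 was at least 170-fold lower in WT and at least 282-fold in KO, and Krt10 at least 6.79-fold and at least 26.5-fold. The other named keratinocyte markers were higher with IL-4, Epcam by 2.37 in WT and 1.90 in KO, and Itgb4 by 1.63 and 0.97. Of 10 macrophage and Langerhans cell markers only Cd68, a lysosomal protein, could be named, and it had 13.18 untreated and 10.71 with IL-4 in WT, and 11.53 and 10.15 in KO. Of 7 melanocyte markers 4 were named, and the log2 of their summed level was 13.11 and 12.07 in WT and 13.12 and 13.64 in KO. In WT all 4 were lower with IL-4. In KO only Tyrp1 was higher (0.85), while Dct, Pmel and Tyr had differences of -0.27, -1.58 and -0.86. Of 11 fibroblast markers Vim and Sparc were named, and the log2 of their summed level was 11.81 and 10.94 in WT and 12.73 and 12.76 in KO. The T cell markers Cd3g and Cd4, 2 of 8 on that list, lay between 2.24 and 6.37. The mast cell marker Kit, 1 of 5, lay between 5.44 and 6.90, and the endothelial markers Kdr and Emcn, 2 of 5, between 3.55 and 5.30. The part of these cells in the fall of the 4 genes was not tested, and in a bulk sample fewer cells of a type and less RNA per cell cannot be told apart.

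The responses of the genotypes were then compared gene by gene. KO response minus WT response was 0.69 for Il33, 0.86 for Il18 and 0.88 for Il1f8, a smaller measured fall in KO, and -0.59 for Il1rn, a larger one. None of the 4 reached 2-fold, where 10.4% of the 11854 clusters did. The 1098 clusters called lower in WT had a median of 0.43 in this measure, and all clusters had -0.01. With values under the background level raised to it, the 4 differences became 0.32, 0.34, 0.68 and -0.02.

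**Figure D2:**
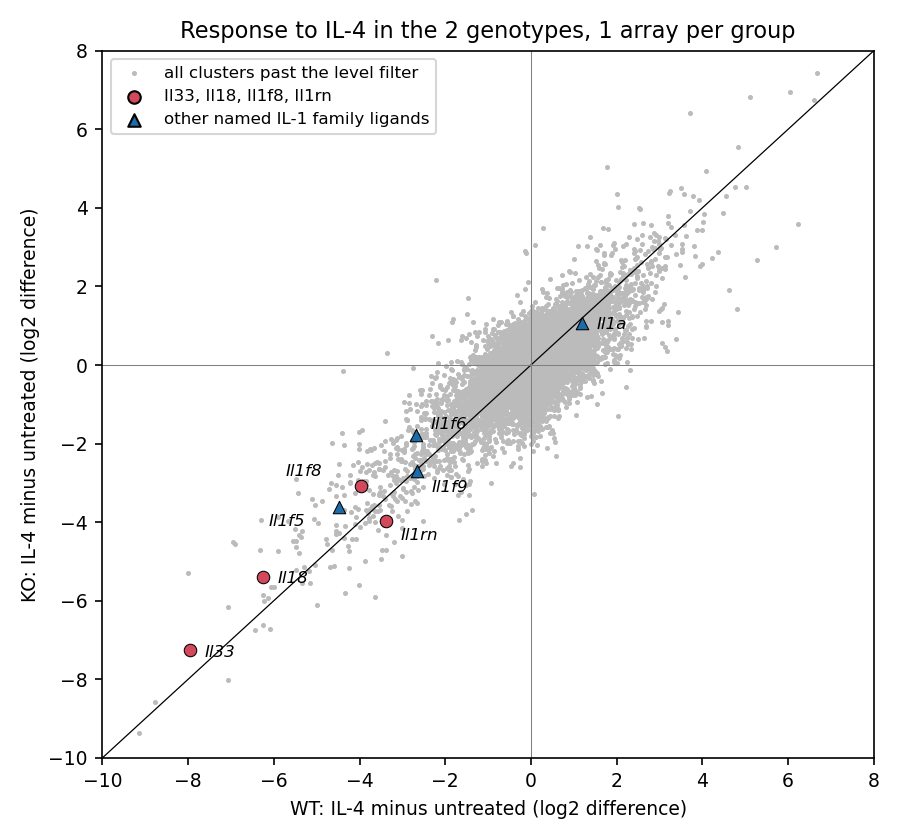
Log2 difference IL-4 minus untreated in WT (x axis) and KO (y axis) for the 11854 clusters past the level filter (grey), the 4 genes (red circles) and the other named IL-1 family ligands (blue triangles), 1 array per group, with the line of equal response in black. Il33 and Il18 lie at the far end of the falls on both axes, Il1rn just below the line, and Il1a is the ligand on the side of the rises.

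Of the 4 genes, Il1rn differed most between genotypes under either treatment. Untreated it was at 13.46 in WT and 12.61 in KO (-0.85, 1.81-fold lower in KO), and with IL-4 at 10.09 and 8.64 (-1.45), so the KO value was the lower one under both treatments. The authors' deposited table gives 2.73-fold for the IL-4 pair. Since the KO value with IL-4 is under the background level, the bound is at least 1.84-fold lower in KO, which is short of 2-fold. As far below WT as Il1rn lay 132 of the 11854 clusters with IL-4 (1.11%) and 530 untreated (4.47%). Among the negative control rows 392 of 5222 lay as far below with IL-4 and 820 untreated. Il1rn was named through the IL-4 genotype table as well as through the WT response, so the untreated pair is the one that table did not choose, although it shares the untreated WT array with the response.

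Il33, Il18 and Il1f8 differed less between genotypes. Untreated, KO minus WT was -0.32 for Il33, -0.34 for Il18 and -0.55 for Il1f8. The 1098 clusters called lower with IL-4 in WT had a median of -0.45 there, and that comparison shares the untreated WT array with this one. With IL-4 the differences had the other sign, at 0.37, 0.52 and 0.34, and for Il33 and Il18 both values were under background. Untreated, none of the 4 genes was called, against 4.5% of all clusters, and with IL-4 Il1rn was called, against 5.48%.

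A list of IL-1 family ligands and antagonists holds 15 symbols, with Il1f5, Il1f6, Il1f8 and Il1f9 each also under a second symbol. Il1b, Il1f10 and Il18bp have no named cluster, and the other 8 genes were named. In WT 7 were called lower and 1 higher, where 10.7% of all clusters were called higher, and the counts in KO were also 7 and 1, where 8.93% were called higher. Of the 4 that are not Il33, Il18, Il1f8 or Il1rn, 3 were lower and 1 higher in each genotype, where 9.26% of all clusters were lower in WT and 9.33% in KO. Naming itself raises such shares: of the 2621 clusters with a single symbol that passed the level filter, 46.5% were called higher and 40.8% lower in WT, and 26.1% and 31.0% in KO. The medians of the 8 named genes were -3.67 in WT and -3.36 in KO, against 0.09 and 0.07 over all clusters. All 8 were named through the WT comparison, so nothing is read from the distance to all clusters. The 1098 clusters called lower in WT had medians of -1.70 in WT and -1.43 in KO, and 65.9% of them were called lower in KO. Il1f5, which encodes the antagonist of the IL-36 receptor, went from 15.72 to 11.25 in WT and from 15.03 to 11.40 in KO. The IL-36 agonist gene Il1f9 (IL-36 gamma) fell as well, with differences of -2.66 in WT and -2.70 in KO. Il1f6 (IL-36 alpha), also an agonist gene, had measured differences of -2.68 and -1.78. Il1f9 was above 16 untreated in both genotypes. Il1f6 was above background on the untreated WT array only, so its bound is at least 1.23-fold lower in WT and no fold is given in KO. The agonist genes Il1f8 and Il1f9 and the antagonist gene of the IL-36 receptor were thus lower, as was the antagonist of the IL-1 receptor. Il1a, the agonist IL-1 alpha of that receptor, rose instead, from 10.86 to 12.05 in WT (1.19) and from 10.34 to 11.41 in KO (1.07). Il1b has no named cluster here.

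Position on the genome sets these genes side by side. Il1f8 (transcript cluster TC0200000373.mm.2, chr2:24153172-24160103) and Il1rn (TC0200000382.mm.2, chr2:24336860-24351491) are protein-coding genes at the ends of a stretch of 198 kb with 6 protein-coding genes in the RefSeq annotation of GRCm38.p6. In order these are Il1f8, Il1f9, Il1f6, Il1f5, Il1f10 and Il1rn. The 5 that could be named, all but Il1f10, were called lower with IL-4 in both genotypes, from -2.66 to -4.47 in WT and from -1.78 to -3.97 in KO. Of all clusters 9.26% were called lower in WT and 9.33% in KO, and of the named ones 40.8% and 31.0%. All 5 were named through the WT comparison, so nothing is read from their count in WT. Of the 1098 clusters called lower in WT, 65.9% were called lower in KO as well. Il1f6 was above background on the untreated WT array only. Its bound in WT is at least 1.23-fold lower, and both KO values are under background, so a fall in KO is not shown. Il1a lies on the same chromosome outside the stretch, at chr2 position 129299609. Il33 (TC1900000448.mm.2, chr19:29925113-29960718) and Il18 (TC0900000599.mm.2, chr9:50554700-50581841) are protein-coding genes on other chromosomes.

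Receptor genes went the other way in WT. Of 10 listed receptors 4 were named, and 3 were called higher with IL-4 in WT and 2 in KO, with medians of 1.72 and 0.84. Of all clusters 10.7% and 8.93% were called higher, and of the named ones 46.5% and 26.1%. Of the 1265 clusters called higher in WT, 52.4% were called higher in KO. Il1r1, the signalling IL-1 receptor that IL-1 alpha binds and Il1rn blocks, rose from 10.91 to 13.21 in WT and from 10.92 to 12.55 in KO. Il1rap, the accessory chain shared by several receptors of the family, rose from 9.22 to 10.77 in WT and went from 9.46 to 10.09 in KO, which was under 2-fold. Il18r1, a chain of the IL-18 receptor, rose by 1.89 on the log2 scale in WT, from a value under background, and by 1.05 in KO. The decoy receptor gene Il1r2 was under background on every array. Il1rl1, the receptor of IL-33, and Il1rl2, the receptor of IL-36, have no named cluster here.

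Among the 25 listed genes of IL-1 and Toll-like receptor signalling 7 were named, with 5 called higher and 2 lower in WT, and 3 higher and 1 lower in KO. Of all named clusters 46.5% were higher and 40.8% lower in WT, and 26.1% and 31.0% in KO. Of all clusters called higher in WT 52.4% were called higher in KO, and of those called lower in WT 65.9% were called lower. Of the 7 genes, Irak2 and Map3k8, the 2 called lower in WT, lay under background on all 4 arrays. Tnfaip3 (A20, a feedback inhibitor of NF-kB) rose by 3.05 in WT and 2.48 in KO, and Irak3, an inhibitory IRAK family member, by 1.64 and 2.11. Nfkb2, an NF-kB subunit, went from 7.27 to 9.56 in WT and from 7.46 to 9.35 in KO, with both untreated values under background, so its bounds are at least 1.27-fold and at least 1.10-fold higher. Irak2, which transmits the signal, had measured differences of -3.40 and -1.95. Zc3h12a, which encodes an RNase that degrades cytokine messages, rose in WT (1.44) and was at -0.39 in KO.

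**Figure D3:**
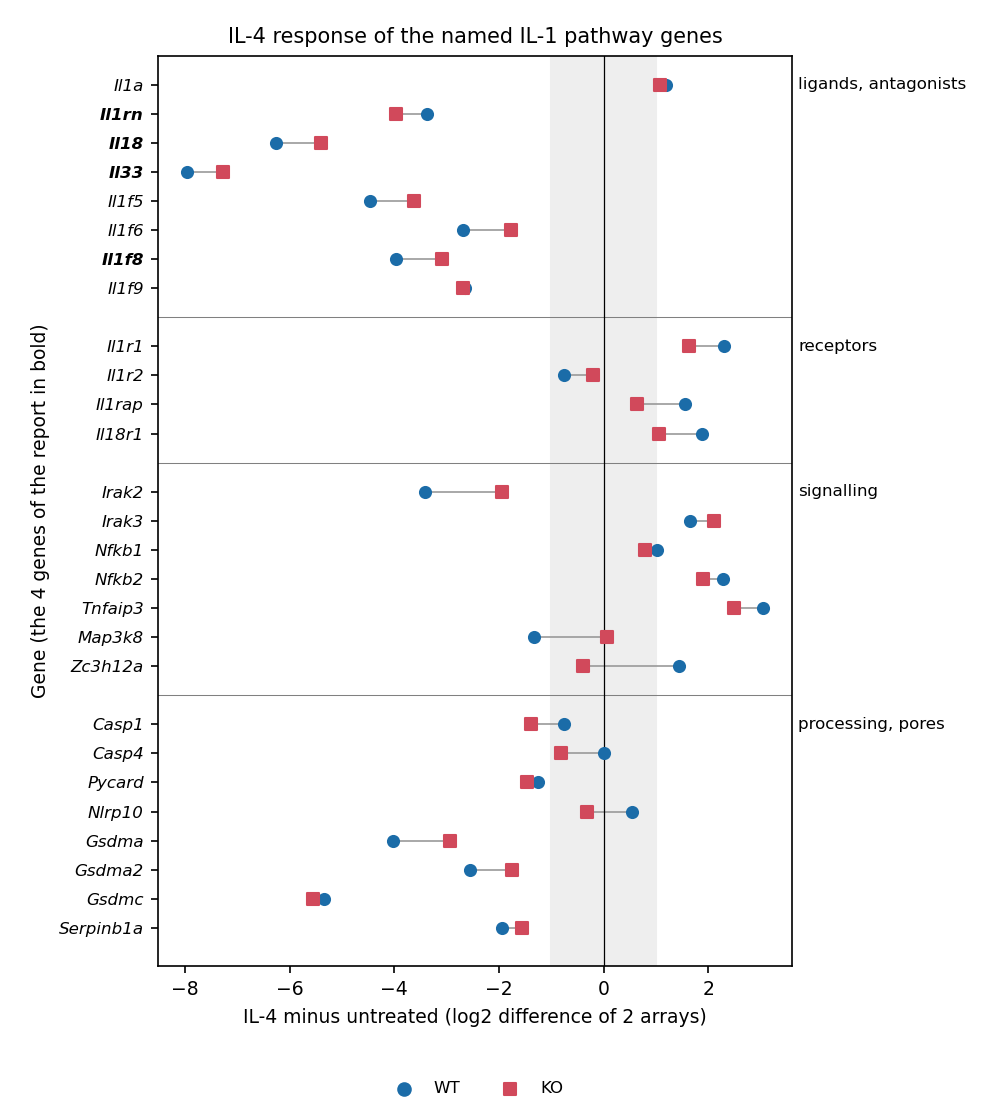
Log2 difference IL-4 minus untreated (x axis) in WT (circles) and KO (squares) for 27 named genes of the ligand, receptor, signalling and processing lists (y axis), 1 array per group, with the range under 2-fold shaded. The ligands other than Il1a lie left of the shading, Il1r1 and Il18r1 to its right in both genotypes, and Gsdmc is the lowest of the processing list.

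Several genes that process or release these cytokines were lower with IL-4. Of the 8 named genes of this list that are reported here, 5 were called lower in WT and 6 in KO. Of all clusters 9.26% and 9.33% were called lower, and of the named ones 40.8% and 31.0%. Of the 1098 clusters called lower in WT, 65.9% were called lower in KO. Among the listed genes called, Pycard and Casp1, the latter called in KO only, were under background on all 4 arrays. Gsdma2 was above background on the untreated WT array only, and Gsdmc was under it with IL-4. With values under background raised to it, only Gsdma, Gsdmc and Serpinb1a stayed 2-fold lower, in both genotypes. Gsdma and Gsdmc encode gasdermins, a family of pore-forming proteins through which some cytokines leave the cell. Gsdmc went from 11.39 to 6.04 in WT and from 10.22 to 4.68 in KO, and Gsdma from 15.35 to 11.32 and from 14.45 to 11.51.

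Casp1 and Pycard, which encode the enzyme and the adaptor of the inflammasome that matures IL-18, were lower in KO. Casp1 had 8.04 in WT and 6.14 in KO untreated (-1.90), and 7.28 and 4.75 with IL-4 (-2.54). Pycard had 7.37 and 6.30 untreated (-1.06) and 6.11 and 4.85 with IL-4 (-1.26). For both genes each KO value was below the WT value of the same treatment, but all 8 values lie under the background level, so no fold is given. Casp4, which encodes caspase-11 in the mouse and neighbours Casp1 on chromosome 9, was lower in KO by -0.70 untreated and by -1.53 with IL-4, also under background. Of the 8 genes reported here, 4 were called lower in untreated KO, and the median of the 8 was -0.97. Under IL-4, 5 were called lower, and the median was -1.31. Over all clusters 3.16% were called lower and 1.35% higher untreated, 3.78% lower and 1.7% higher under IL-4, and the medians were -0.01 and -0.02. Of the 2621 named clusters 10.1% were lower by 2-fold untreated and 16.4% under IL-4. Among the 5222 negative control rows, 23.1% differed by 2-fold or more in either direction untreated and 25.1% with IL-4. Gsdma2, called lower untreated, was under background in KO. Casp1, Casp4, Pycard, Nlrp10 and Gsdmc, the 5 called with IL-4, were in the table of that comparison, which chose them. Cd68 was lower in untreated KO too (-1.65), and the part of macrophage-lineage cells in these differences was not tested.

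**Figure D4:**
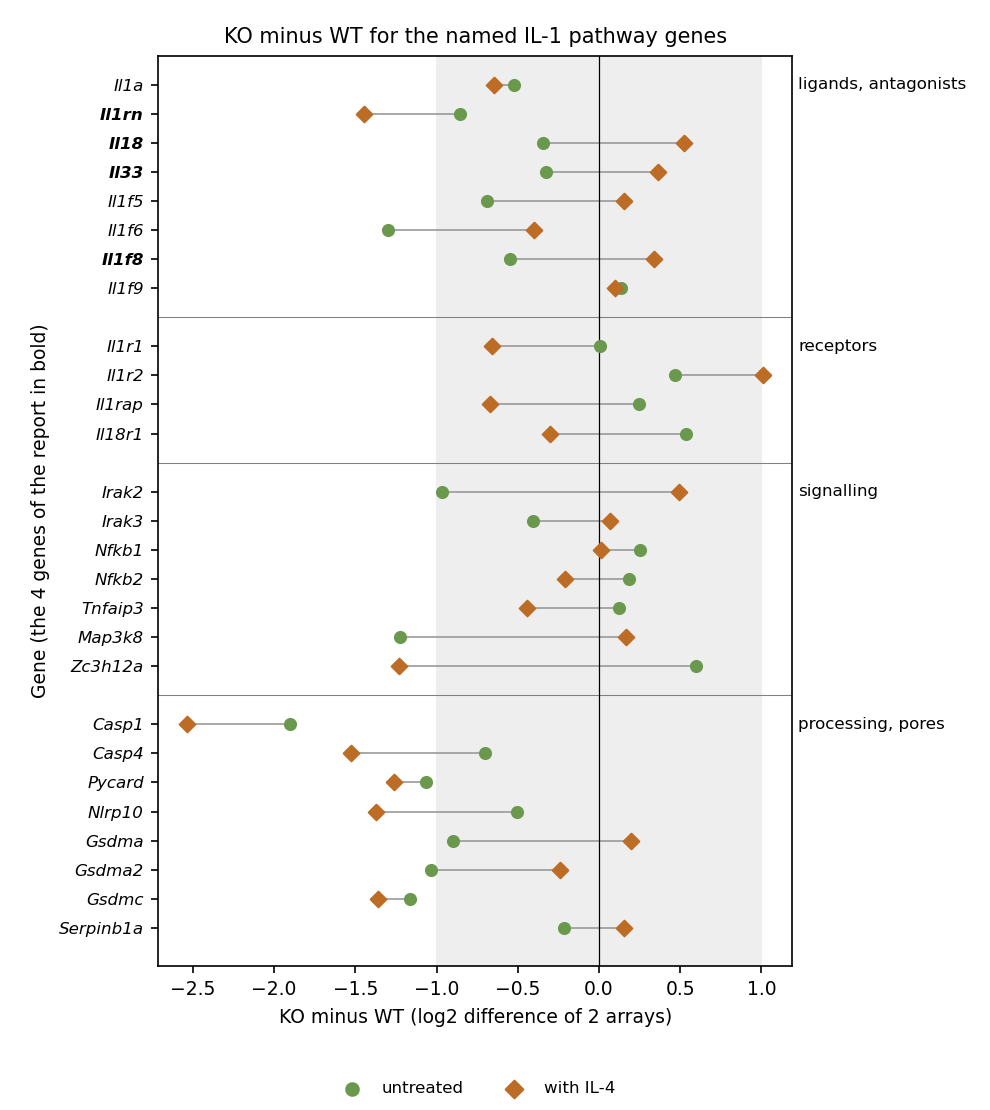
Log2 difference KO minus WT (x axis) in untreated cultures (circles) and with IL-4 (diamonds) for the same 27 genes (y axis), 1 array per group, with the range under 2-fold shaded. Il1rn, Casp1, Casp4, Pycard and Gsdmc lie left of 0 under both treatments, while Il33, Il18 and Il1f8 lie on opposite sides of 0.

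The list of alarmins, 5 of 15 named, holds Il33 beside Il1a, Hmgb1, S100a8 and S100a9. S100a8 and S100a9, the subunits of calprotectin, fell with IL-4, with differences of -4.37 and -5.90 in WT and of -4.41 and -4.73 in KO, in the direction of Il33. With IL-4, S100a9 was under background in both genotypes and S100a8 in KO. The bounds are at least 24.6-fold lower in WT and at least 9.64-fold in KO for S100a9, and at least 14.6-fold in KO for S100a8. Hmgb1 itself changed by -0.55 in WT. Of 20 genes known to be induced by IL-1 or IL-36 in keratinocytes, 15 were named and passed the level filter, with 9 higher and 4 lower in WT and 9 higher and 3 lower in KO, beside the 46.5% higher and 40.8% lower of named clusters in WT and the 26.1% and 31.0% in KO. Of the 9 called higher, 5 (Cxcl2, S100a7a, Il23a, Csf2 and Csf3) were under background on all 4 arrays. Cxcl1, a neutrophil chemokine, rose by 4.49 in WT and 3.87 in KO from values under background, while Defb4, an antimicrobial peptide, fell, with differences of -3.95 and -1.66 at levels under background. On the list of the IL-4 receptor and STAT6 pathway 4 of 15 genes were named. Beside the same shares of named clusters, 46.5% higher and 40.8% lower in WT and 26.1% and 31.0% in KO, the counts were small. On this list 3 were called higher and 1 lower in WT, and 1 higher and 1 lower in KO. Those called higher in WT were Il2rg, a chain of the IL-4 receptor, with a difference of 2.37 from an untreated value under background, Cish, a feedback inhibitor of cytokine signalling, with 1.29 and under background on all 4 arrays, and the kinase gene Tyk2 with 1.10. Il13ra1, a chain of the receptor for IL-4 and IL-13, went from 11.66 to 8.50 in WT and from 11.59 to 8.76 in KO. Its IL-4 values are under background, so it was at least 5.43-fold lower in WT and at least 5.20-fold lower in KO. Named members of these lists all passed 2-fold in a deposited table, so their counts in WT are no estimate for the whole lists. Of all clusters called higher in WT 52.4% were called higher in KO, and of those called lower in WT 65.9% were called lower in KO.

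The genes most like each of the 4 in pattern were sought among 3055 other named clusters, by the root mean square distance between profiles over the 4 arrays after each was centred on its own mean. For Il33 the nearest was 2610528A11Rik at 0.55 log2, followed by Them5 (0.57), Dsg1a (0.65), Gm6551 (0.65) and Krtdap (0.76). Dsg1a encodes a desmosomal cadherin of the upper epidermis. For Il18 the nearest were Gm6557 (0.23), Teddm3 (0.31), Dsc1 (0.37), a desmosomal cadherin, Calm4 (0.39) and Dsg1a (0.44). Il1f8 had closer neighbours, namely Lce1h (0.05) and Flg (0.08), which encode proteins of the cornified layer, the nuclear receptor gene Rora (0.08), Jarid2 (0.10) and Wnt4 (0.11). Il1rn was nearest to Prom2 (0.15), 4930438A08Rik (0.18), Sprr1b (0.20), Cnfn (0.20) and Dlx3 (0.23), where Sprr1b and Cnfn encode cornified envelope proteins and Dlx3 an epidermal transcription factor. Among the 4 genes themselves, Il1f8 and Il1rn were 0.64 apart and Il33 and Il18 0.89. This distance depends on the size of the fall with IL-4 as well as on its shape over the arrays. It uses values as measured. With IL-4 those of Il33 and Il18 lie under background in both genotypes, that of Il1f8 in WT and that of Il1rn in KO.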

How the data were processed

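RNA of 4 cultures was hybridised to Clariom S Mouse arrays, 1 per group, with 100 ng of RNA as input, per the labels. The authors deposited log2 values for 22206 transcript clusters and 6640 control rows, made by RMA in Affymetrix Expression Console 1.4 per the submitters' processing notes. RMA makes array distributions alike, so a global change in RNA is removed (cluster medians were 5.10 to 5.15). The authors also deposited tables of 2 comparisons with log2 values, a signed fold change and gene symbols, with annotation na36 on mm10 per the file headers.

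Log2 differences between arrays were computed in Python 3.11.15 with pandas 2.3.3. A cluster was called at 2-fold or more where its highest value reached the median of all cluster values, which left 11854. The arithmetic of the calls was checked on simulated data with little noise, which gives no error rate for these arrays. Cyclic loess (limma 3.58.1), median centring, other thresholds and filters, a floor and a ceiling were tried. All groups follow the sample titles. The text names the 4 genes, listed genes, and the 5 nearest profiles per gene. The members, lists and motifs were chosen with earlier results of these data known. Locations and promoter sequences are from RefSeq (GRCm38.p6), where all 4 symbols matched. Protein sequences were not used here, and some genes of the processing list are not reported here, so its counts and medians do not cover the whole list.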

Additional observations from a re-analysis of the deposited data

Results flagged for a closer look

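Some genes differed between KO and WT in opposite directions in the 2 treatments, or responded to IL-4 in opposite directions in the 2 genotypes. None of these differences was tested, since each group has 1 array, and 46.2% of the 11854 clusters changed the sign of KO minus WT between treatments and 27.6% that of the IL-4 response between genotypes. The difference KO minus WT for Il33 was -0.32 in untreated and 0.37 in IL-4 cultures, for Il18 -0.34 and 0.52, and for Il1f8 -0.55 and 0.34. Map3k8, a kinase upstream of ERK, was at -1.23 untreated and 0.17 with IL-4, with IL-4 responses of -1.33 in WT and 0.06 in KO, and all 4 of its values lie under the background level. Zc3h12a was at 0.59 untreated and -1.23 with IL-4, with responses of 1.44 in WT and -0.39 in KO.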

How the results depend on the processing

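Of 230 recomputed values and counts, 219 stayed on the same side of the threshold or, for counts, within 1.5 times. Much of this was fixed in advance, so the tally is no measure of robustness. The highest values of the 4 genes lie between 12.87 and 13.46, so neither the level filters tried nor the ceiling at 16 could change them. The authors' deposited comparisons hold the same values, rounded. No value took the opposite sign, and KO minus WT with IL-4 became 0 for Il33 and Il18 when values under background were raised to it. The fall with IL-4 stayed past the threshold for all 4 genes in both genotypes under every setting run, between -8.09 and -3.83 for Il33 in WT and between -7.39 and -3.51 in KO. At 1.5-fold in place of 2-fold, the count of genes called between untreated genotypes moved to 1 (Il1rn, -0.85) and that of unequal responses to 4 (Il33 0.69, Il18 0.86, Il1f8 0.88, Il1rn -0.59), where 17.1% and 29.5% of all clusters were called. The call of Il1rn between genotypes with IL-4 was lost at 4-fold (-1.45), leaving 0, and with values under background raised to it (-0.88), also 0, since its KO value is then 9.21 by construction. Using the median of all rows, control rows included (5.33), as the level filter was chosen after seeing the data and changed no call. No paired analysis was possible because each group has 1 sample. The values near or under the negative controls limit the sizes of Il33 and Il18 most.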
